A study of Danio rerio with 6 samples.

Results

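The 7 genes described here mark neurons that arise from the neural crest, or neurons in general, and were taken by identifier from a table of 27726 zebrafish (Danio rerio) genes. They are phox2bb (ENSDARG00000091029), phox2a (ENSDARG00000007406), ret (ENSDARG00000055305), ascl1a (ENSDARG00000038386), th (ENSDARG00000030621), elavl3 (ENSDARG00000014420) and elavl4 (ENSDARG00000045639). All 7 identifiers were found, and all 7 passed the filter on low values. RNA was sequenced from cells that had been sorted from larvae, 6 days post fertilization, for the red fluorescence of a sox10:dsRed reporter. Both groups carried the reporter: 3 libraries came from WT larvae and 3 from Shoc2-/- mutants made with CRISPR/Cas9, whose titles carry the name D22. The labels give no strain, no number of larvae per library and no statement that libraries came from separate clutches. Any p-value below therefore measures only the spread between these libraries, which may be technical.

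sox10 is a transcription factor gene of the neural crest, the migratory embryonic cell population that forms pigment cells, peripheral glia, parts of the head skeleton, and the enteric, sympathetic and sensory neurons of the peripheral nervous system. In enteric and sympathetic precursors, the homeodomain factors of the Phox2 family and the receptor Ret act early, and ascl1a belongs to the proneural basic helix-loop-helix factors that start neuronal differentiation. Tyrosine hydroxylase, made from th, marks catecholamine-producing neurons, while the RNA-binding proteins of elavl3 and elavl4 are made in neurons of the central and peripheral nervous system alike. The scaffold protein Shoc2 works in RAS-ERK signalling, a pathway to which receptors such as Ret pass their signals.

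None of the 7 neuron genes was called different between genotypes. With limma on log2(normalized count + 1) and Benjamini-Hochberg adjustment over 20463 genes, 0 of 7 passed an adjusted p of 0.05, and their adjusted p-values ran from 0.901 to 0.996. Of all genes tested, 0.00489% passed that threshold (1 gene, lower in mutants), so 0 of 7 is also what that share would give. That 1 call was lost when any library other than wild-type replicate 2 was left out, and 4 genes passed without that library. With all 6 libraries, no neuron gene had an unadjusted p under 0.05 in limma, in edgeR's quasi-likelihood test or in DESeq2. The share of all genes under it was 5.8% in limma, 6.02% in edgeR and 6.42% in DESeq2. Of the 7 genes, 0 passed the adjusted threshold in edgeR (0% of all genes) or DESeq2 (0.757%). Wild-type and mutant values overlapped for each of the 7 genes, where 10.6% of all genes tested had groups that did not overlap. The median log2 fold change of the 7 genes was 0.14, beside 0.0078 over all genes, and it ran from 0.00 (without wild-type replicate 3) to 0.26 (without wild-type replicate 2) with a library left out. Without regard to sign, the median size was 0.14 for the 7 genes and 0.17 for all genes.

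**Figure D1:**
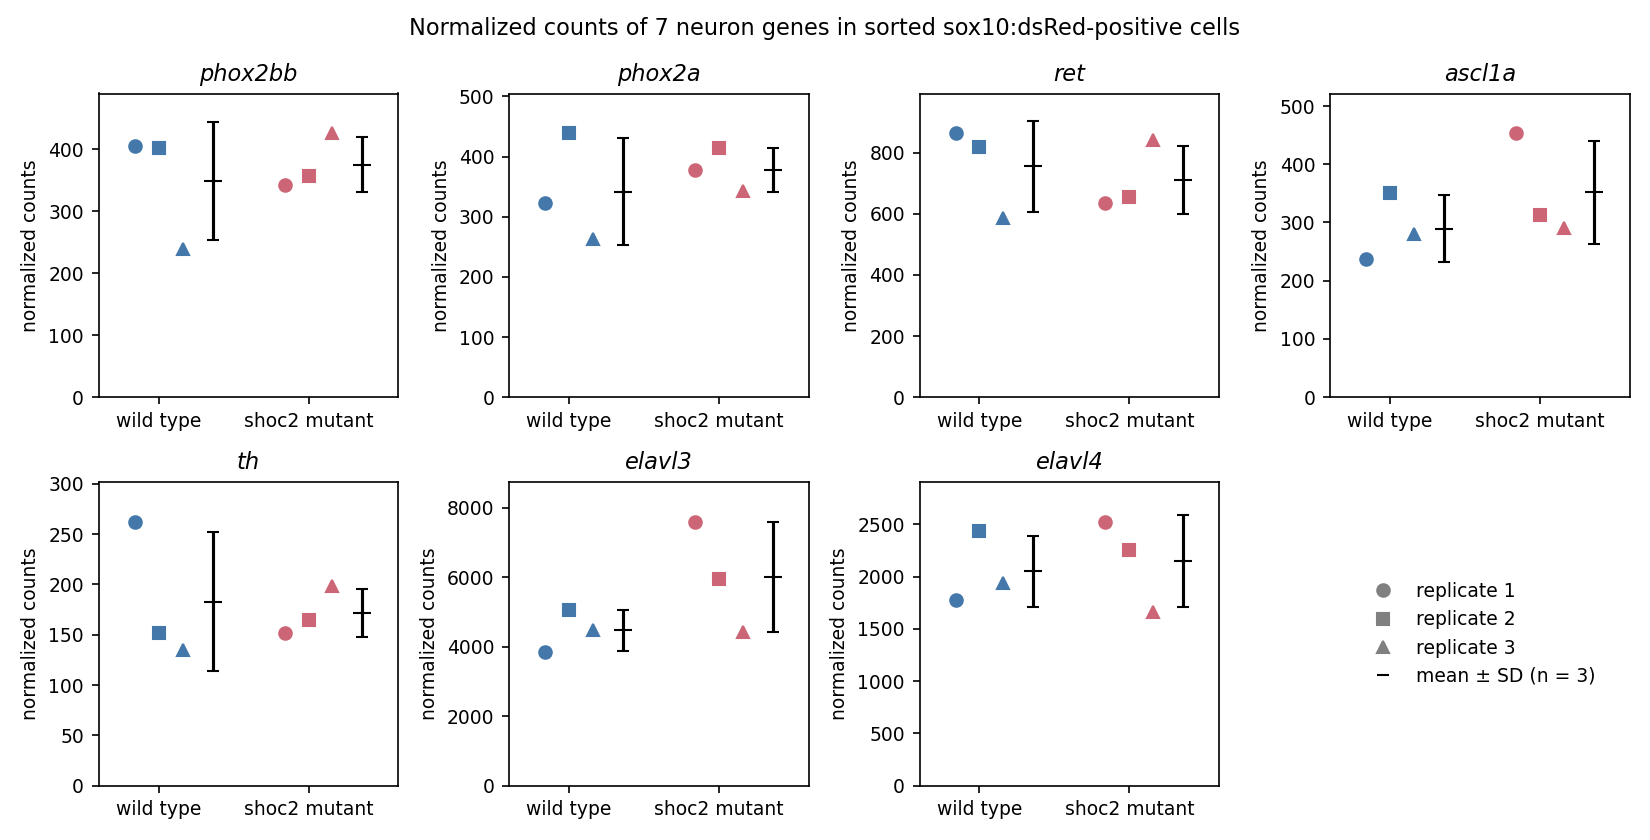
Normalized counts of each neuron gene (y axes, starting at 0) in the 3 wild-type and 3 shoc2 mutant libraries; symbols give the replicate number and the bars the mean ± SD. The genotypes overlap in each of the 7 panels. The largest difference is that of elavl3, with wild type between 3858 and 5054 and mutants between 4431 and 7598.

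The libraries as a whole frame these values. They held between 20088591 and 21802683 reads assigned to genes, and the reads behind a neuron gene ran from 133 for th to 7858 for elavl3 in a single library. The targeted gene shoc2 (SHOC2 in the name table) had 1194, 958.5 and 1083 normalized counts in wild-type replicates 1, 2 and 3, and 844.1, 797.6 and 673 in mutant replicates 1, 2 and 3. Each mutant library was thus below each wild-type library, with a log2 fold change of -0.48 (SE 0.147) that did not pass in limma (adjusted p 0.636). The transcript of the sorting gene, SOX10, ranged from 8573 (wild-type replicate 2) to 30211 (mutant replicate 2) and overlapped between genotypes. Transcripts of cell types other than neurons were read in all libraries: the summed normalized counts of 9 skeletal muscle genes ran from 7449 to 48767 in wild type and from 11851 to 98477 in mutants. The sum of 8 epithelial genes ran from 70161 to 204718 in wild type and from 61452 to 97599 in mutants. That of 10 retina genes ran from 16683 to 30476 in wild type and from 10492 to 28953 in mutants. The sum of 12 cartilage and connective tissue genes did not overlap, with 567058 to 601158 in wild type and 760466 to 840654 in mutants. In 7 of these 12 genes all mutant values were above all wild-type values, beside 5.29% of all genes tested. Of the 12, 0 passed in limma and 3 in DESeq2, beside 0.00489% and 0.757% of all genes. None of the genes of these 4 lists was at 0 in all libraries, and the part of these cells in the values of the neuron genes was not tested. In such bulk samples, fewer cells of a type and less RNA per cell cannot be told apart.

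The transcription factors come first. phox2bb encodes a homeodomain factor required for autonomic neurons, including those of the gut. It had 405.8, 402.2 and 238.5 normalized counts in wild-type replicates 1, 2 and 3, and 342.3, 357.2 and 426 in mutant replicates 1, 2 and 3. Wild-type replicate 3 was the lowest library, mutant replicates 1 and 2 lay between it and the other wild-type libraries, and mutant replicate 3 was the highest. Wild type averaged 349 ± 95.5 (SD, n = 3) and mutants averaged 375 ± 44.6 (SD, n = 3). The log2 fold change of 0.14 (95% interval -0.38 to 0.66) had an adjusted p of 0.981 in limma, and it was -0.11 without wild-type replicate 3.

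phox2a, its close relative, acts in the same autonomic lineages. It had 322.2, 439.1 and 263.8 normalized counts in wild type and 378.1, 414.7 and 342.1 in mutants, again by replicate. All 3 mutant values lay inside the wild-type range, whose lowest value was once more replicate 3 and whose highest was replicate 2. Its log2 fold change was 0.17 (95% interval -0.30 to 0.65), with a limma adjusted p of 0.974. Without wild-type replicate 3 it was 0.0038, and without wild-type replicate 2 it was 0.37.

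ascl1a is used widely in neurogenesis, in the brain and retina as well as in the crest. Wild-type replicates 1, 2 and 3 had 237.5, 350.5 and 281 normalized counts, and mutant replicates 453.5, 313.1 and 289.9. Mutant replicate 1 was the highest library and wild-type replicate 1 the lowest, and the remaining 4 libraries were interleaved. The log2 fold change was 0.27 (95% interval -0.24 to 0.78), with a limma adjusted p of 0.964. It was 0.075 without mutant replicate 1 and 0.42 without wild-type replicate 2.

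ret encodes the receptor tyrosine kinase for ligands of the GDNF family, on which enteric neuron precursors depend. It had 863.6, 818.1 and 586.2 normalized counts in wild-type replicates 1, 2 and 3, and 635.3, 655.9 and 839.8 in mutant replicates. The lowest library was wild-type replicate 3 and the highest was wild-type replicate 1, so the mutant values lay wholly within the wild-type range. The means of 756 ± 149 (SD, n = 3) and 710 ± 113 (SD, n = 3) differed by a log2 fold change of -0.08 (95% interval -0.51 to 0.35; limma adjusted p 0.983). The interval reaches from 0.703 times to 1.27 times the wild-type level. Without wild-type replicate 1 the log2 fold change was 0.025.

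th encodes tyrosine hydroxylase, the rate-limiting enzyme of catecholamine synthesis. It had the fewest reads of the 7 genes, with 262.5, 152 and 134.4 normalized counts in wild type and 151.8, 164.2 and 198.5 in mutants. Wild-type replicate 1 stood above the other 5 libraries, which lay between 134.4 and 198.5. The log2 fold change of -0.04 had the widest interval of the 7 genes, from -0.67 to 0.59 (limma adjusted p 0.996). It was 0.25 without wild-type replicate 1 and 0.044 without mutant replicate 1.

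elavl3, which encodes an RNA-binding protein made early in neuronal differentiation and is a standard zebrafish marker of neurons, showed the largest difference among the 7 genes. Wild-type replicates 1, 2 and 3 had 3858, 5054 and 4487 normalized counts, and mutant replicates 1, 2 and 3 had 7598, 5961 and 4431. Mutant replicates 1 and 2 lay above every wild-type library, but mutant replicate 3 lay below wild-type replicates 2 and 3. The means were 4466 ± 598 (SD, n = 3) and 5997 ± 1584 (SD, n = 3), a log2 fold change of 0.40 (95% interval -0.04 to 0.84). The unadjusted limma p was 0.0724 and the adjusted p 0.901, and the exact permutation test (two-sided) gave p = 0.3, where 3 against 3 libraries allow no p below 0.1. Without mutant replicate 3 the log2 fold change was 0.60, with an unadjusted limma p of 0.0083 and an adjusted p of 0.729. The groups no longer overlapped in that setting, for which the share of all genes without overlap was not computed. Mutant replicate 3 was the only mutant library within the wild-type range, so leaving it out was bound to end the overlap. Neither the lack of overlap nor the unadjusted p of that setting gives support for a difference. Without mutant replicate 1 the log2 fold change was 0.21, with an unadjusted limma p of 0.273 and an adjusted p of 0.91.

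elavl4, a related neuronal RNA-binding protein gene, differed less. It had 1777, 2433 and 1938 normalized counts in wild type and 2526, 2253 and 1666 in mutants. The lowest and the highest library were both mutant, and the wild-type values lay between them. The means of 2049 ± 342 (SD, n = 3) and 2148 ± 439 (SD, n = 3) gave a log2 fold change of 0.06 (95% interval -0.36 to 0.47; limma adjusted p 0.99). Without wild-type replicate 1 it was -0.037, and without mutant replicate 1 it was -0.068.

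**Figure D2:**
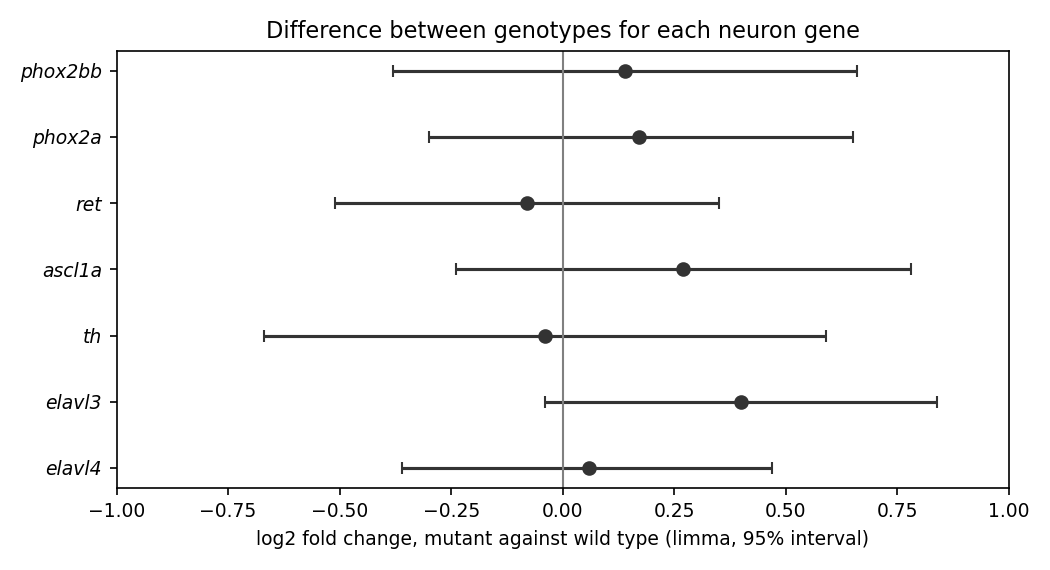
Log2 fold change of each neuron gene in mutants against wild type (x axis, limma on log2(normalized count + 1)), with bars for the 95% interval and a line at no difference. All 7 intervals include 0, and that of elavl3 only just does so, from -0.04 to 0.84.

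The spread between libraries was larger than read depth alone gives. For each of the 7 genes and in both genotypes, the coefficient of variation between libraries exceeded the one that counting reads alone would give. For elavl3 it was 13.4% in wild type and 26.4% in mutants, where counting gives 1.51% and 1.28%. For th it was 37.9% and 14.1%, where counting gives 7.39% and 7.52%. The smallest was that of phox2a in mutants, at 9.6% against 5.08% from counting. The highest library exceeded the lowest by between 1.47-fold for ret and 1.97-fold for elavl3.

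The 7 genes did not vary together over the libraries. They are described here as 2 patterns with phox2a between them, which were read from these same values. ascl1a, elavl3 and elavl4 were each highest in mutant replicate 1, while phox2bb, phox2a, ret and th were each lowest in wild-type replicate 3. Over the 6 libraries, ascl1a and elavl3 had a Pearson r of 0.923 (exact permutation p = 0.0222) and a Spearman rho of 0.886 (p = 0.0333), and r was 0.528 without the 2 libraries farthest from the median of ascl1a. This relation rests in large part on those 2 libraries. For elavl3 and elavl4, r was 0.824 (exact permutation p = 0.0361) and rho 0.886 (p = 0.0333), with r = 0.765 without the 2 libraries farthest out for elavl3. phox2bb and ret had r = 0.867 (exact permutation p = 0.00833) and rho = 0.943 (p = 0.0167), with r = 0.988 without the 2 libraries farthest out for phox2bb. ret and th had r = 0.76 (exact permutation p = 0.0361) and rho = 0.943 (p = 0.0167), with r = 0.52 without the 2 libraries farthest out for ret. None of the 21 pairs passed after Benjamini-Hochberg adjustment over the pairs: the smallest adjusted p was 0.152 for Pearson and 0.14 for Spearman (exact permutation). After each genotype's mean was subtracted, r was 0.959 for phox2bb with ret, 0.763 for ret with th and 0.697 for phox2bb with th. It was 0.956 for elavl3 with elavl4, 0.913 for ascl1a with elavl3 and 0.879 for ascl1a with elavl4. The positive values of both patterns were thus also present within genotypes. Between the patterns, th had r = -0.551 with elavl3 and -0.616 with elavl4 over the 6 libraries. These became 0.568 and 0.647 without the 2 libraries farthest out for th.

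**Figure D3:**
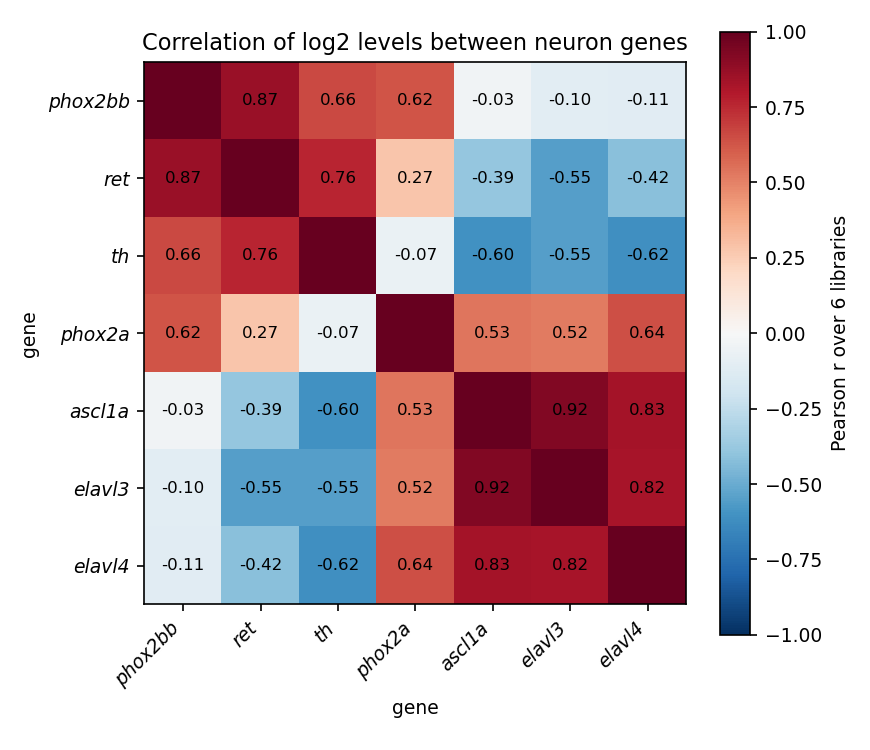
Pearson r of log2(normalized count + 1) over the 6 libraries for each pair of neuron genes, on a colour scale from -1 to 1. phox2bb, ret and th form a block of positive values (0.66 to 0.87) and ascl1a, elavl3 and elavl4 another (0.82 to 0.92). Values between the blocks are negative. Those of th with elavl3 and elavl4 turned positive without the 2 libraries farthest out for th. No pair passed after adjustment.

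The other neuron genes were taken from 6 lists. General neuron genes, such as those for synaptic vesicle and axon proteins, numbered 27 identifiers, of which 26 were tested and 0 rose or fell. Of these 26 genes, 13 were highest in mutant replicate 1 and 14 were lowest in mutant replicate 3; of all 20463 genes tested, 19.8% were highest and 18.8% lowest in those libraries. The list's median log2 fold change was 0.05. That median was -0.19 without wild-type replicate 1 and -0.21 without mutant replicate 1. Their summed level ran from 15060 to 21472 normalized counts in wild type and from 13892 to 23477 in mutants, with mutant replicate 1 highest, as for elavl4. The retina sum was also high in mutant replicate 1 (28953) and lowest in mutant replicate 3 (10492), and it was high in wild-type replicates 2 and 3 (28140 and 30476). Skeletal muscle genes were highest in mutant replicate 1 as well, for 9 of 9 genes. The part of retina or muscle transcripts in the values of elavl3, elavl4 and ascl1a was not tested.

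Counted gene by gene, autonomic and catecholaminergic genes did not follow the second pattern. Of 12 tested, 3 were lowest in wild-type replicate 3, the same number as in wild-type replicate 1 and in mutant replicate 2, and 18.9% of all genes were lowest in wild-type replicate 3. The summed level of the list, however, was lowest in wild-type replicate 3 (6977) and highest in mutant replicate 3 (10085), as for phox2bb. GATA2, GATA3, HAND2 and the INSM1 genes had the largest values in it, with wild-type means of 696 to 2438. No other gene of the list had a wild-type mean above 371, and those genes were not summed alone. The sum of the whole list ran from 6977 to 9684 normalized counts in wild type and from 9060 to 10085 in mutants. None of the 12 rose or fell, and their median log2 fold change was 0.15, which became -0.07 without wild-type replicate 3 and 0.04 without mutant replicate 3. DBH, dopamine beta-hydroxylase, which acts after tyrosine hydroxylase, had 352.9, 244.9 and 118.3 normalized counts in wild-type replicates 1, 2 and 3, and 227.2, 239.2 and 308.5 in mutant replicates. HAND2, a factor of sympathetic and enteric neurons, had 1472, 1463 and 1068 in wild type and 1529, 1366 and 2107 in mutants. Both were lowest in wild-type replicate 3, as were phox2bb, ret and th, and both were named after their values were seen. That library also had the lowest skeletal muscle sum (7449), with 7 of 9 muscle genes lowest there. Its sums of the 7 leukocyte genes (5300) and 6 erythrocyte genes (8923) that could be matched were the highest of the 6 libraries. The part of these transcripts in the values of phox2bb, phox2a, ret and th was not tested. Among enteric genes, 15 were tested, 0 rose or fell, and the median log2 fold change was -0.16, or 0.00 without wild-type replicate 2. VIP, a neuropeptide of enteric neurons, was low in wild-type replicate 3 (240.6) and in mutant replicate 1 (230.1), against 532 and 547.2 in the other wild-type libraries and 434.2 and 479.1 in the other mutant libraries. NOS1, the neuronal nitric oxide synthase, ranged from 177.9 to 373.7 in wild type and from 215.6 to 255.6 in mutants.

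**Figure D4:**
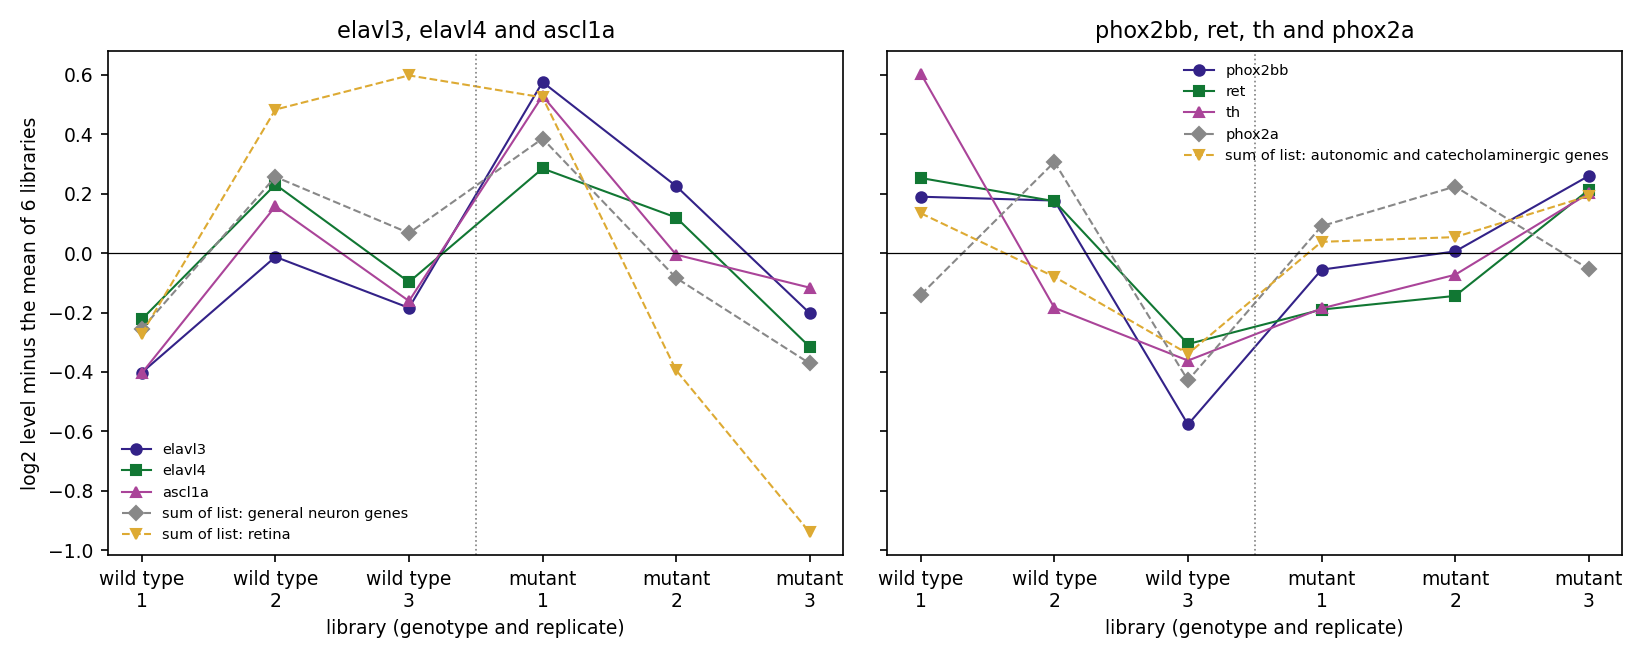
Log2 level of each neuron gene (solid lines, or dashed for phox2a) and of the summed list genes (dashed lines) minus its mean over the 6 libraries, by library; lines only join the points and replicates have no order. On the left, elavl3, elavl4 and ascl1a are highest in mutant replicate 1. On the right, phox2bb, ret, th and phox2a are lowest in wild-type replicate 3, as is the sum of autonomic and catecholaminergic genes. The largest values in that sum are those of GATA2, GATA3, HAND2 and the INSM1 genes.

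Sensory neuron genes and neurotransmitter genes were likewise without a call, at 0 of 16 and 0 of 14 tested, with median log2 fold changes of 0.06 and 0.07. With a library left out, the sensory median ran from 0.03 (without wild-type replicate 3) to 0.13 (without mutant replicate 3). The neurotransmitter median ran from -0.14 (without mutant replicate 1) to 0.26 (without wild-type replicate 2), and was also negative without wild-type replicate 1 (-0.06) or 3 (-0.01). In the 6 lists together, 92 genes other than the 7 members were tested and 0 passed in limma, in edgeR or in DESeq2. At an unadjusted limma p under 0.05 there were 5 of the 92, beside 5.8% of all genes. For 8 of the 92, or 8.7%, the groups did not overlap, beside 10.6% of all genes. Mutants were higher in 6 of these 8, and 5.29% of all genes were without overlap in that direction. The 6 include phox2ba, which passed the filter only through its mutant values.

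The list of proneural factors, to which ascl1a belongs by function, had the median furthest from 0 among the 6 lists. Besides basic helix-loop-helix factors it held INSM1, SOX11 and dlb, which are not of that class. Log2 fold changes of the basic helix-loop-helix genes were 0.09 (ascl1b), 0.30 (neurog1), -0.14 (NEUROD1 and NEUROD4 each), 0.61 and 0.09 (NEUROD6), 0.32 (ATOH1) and 0.41 (atoh7). The genotypes overlapped for each of them. Of 13 genes of the list tested, 0 passed and 11 had a positive log2 fold change. The share of all genes with a positive log2 fold change was not computed. Of the 13 genes, 9 were highest in mutant replicate 1, where 19.8% of all genes tested were highest. The median was 0.32 (0.24 to 0.45 with a library left out). The summed level of the list did not overlap, at 9925 to 11596 normalized counts in wild type and 11759 to 15023 in mutants. Both SOX11 genes had the highest means in it, 2811 and 1955 in wild type and 3663 and 2567 in mutants. NEUROD1 and NEUROD4, the highest basic helix-loop-helix genes of the list, averaged 1948 and 1441 in wild type and 1837 and 1336 in mutants. The basic helix-loop-helix genes were not summed alone, and no background was computed for sums. The sum was not tested. For 3 of the 13 all mutant values lay above all wild-type values, beside 5.29% of all genes in that direction. These were both SOX11 genes, which encode factors of immature neurons, and dlb, a Delta ligand of the Notch pathway. SOX11 (ENSDARG00000095743) had 1852, 2170 and 1843 normalized counts in wild type and 2825, 2383 and 2492 in mutants, a log2 fold change of 0.39 (limma adjusted p 0.654). SOX11 (ENSDARG00000077811) had 2904, 3072 and 2458 in wild type and 3690, 3277 and 4024 in mutants, a log2 fold change of 0.38 (limma adjusted p 0.726). dlb had 628.9, 710.4 and 680.2 in wild type and 1080, 839.7 and 720.5 in mutants, a log2 fold change of 0.37 (limma adjusted p 0.865). These 3 genes were named after their values were seen, and none of their differences passed the test.

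The paralog of phox2bb, phox2ba, had low counts, which were near the limit of detection in wild-type replicates 2 and 3. It had 10.58, 2.111 and 3.032 normalized counts in wild-type replicates 1, 2 and 3 and 14.5, 16.42 and 23.3 in mutant replicates, where 3 reads correspond to between 2.8 and 3.17. The mutant libraries were all above the wild-type libraries, which held for 5.29% of all genes tested. The log2 fold change of phox2ba was 1.83 (SE 0.681), with an unadjusted limma p of 0.025. The gene passed the filter of at least 10 normalized counts in 3 libraries only through the mutants, where it was higher. Its lack of overlap and its unadjusted p therefore give no support for a difference. The difference did not pass in limma (adjusted p 0.763). Counting options are not stated, so it is not known how reads that match both paralogs were assigned.

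The relation between members within a library does not depend on the size factor of that library. The ratio of elavl3 to elavl4 was 2.17, 2.08 and 2.32 in wild-type replicates 1, 2 and 3, and 3.01, 2.65 and 2.66 in mutant replicates 1, 2 and 3. Each mutant ratio was above each wild-type ratio. The means were 2.19 ± 0.12 (SD, n = 3) and 2.77 ± 0.205 (SD, n = 3), a difference of 0.34 on the log2 scale. The exact two-sided permutation p was 0.1, the smallest that 3 against 3 libraries can give, and 0.774 after adjustment over the 21 ratios between members. Leaving out each library in turn gave differences between 0.28 and 0.38. As a background, the ratio of elavl3 to each other tested gene did not overlap between genotypes for 18.9% of genes, and that of elavl4 for 5.74%. Of the 21 ratios between members 2 did not overlap, where the share was 10.6% for single genes over all genes tested. The other of these 2 was the ratio of phox2bb to ret. It was 0.47, 0.492 and 0.407 in wild type and 0.539, 0.545 and 0.507 in mutants. The exact permutation p was 0.1, or 0.774 after adjustment over the 21 ratios. No background over all genes was computed for ratios of phox2bb or ret. Ratios were computed after the values of the genes had been seen, and since gene length is not accounted for, their absolute size does not compare the amounts of the transcripts.

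**Figure D5:**
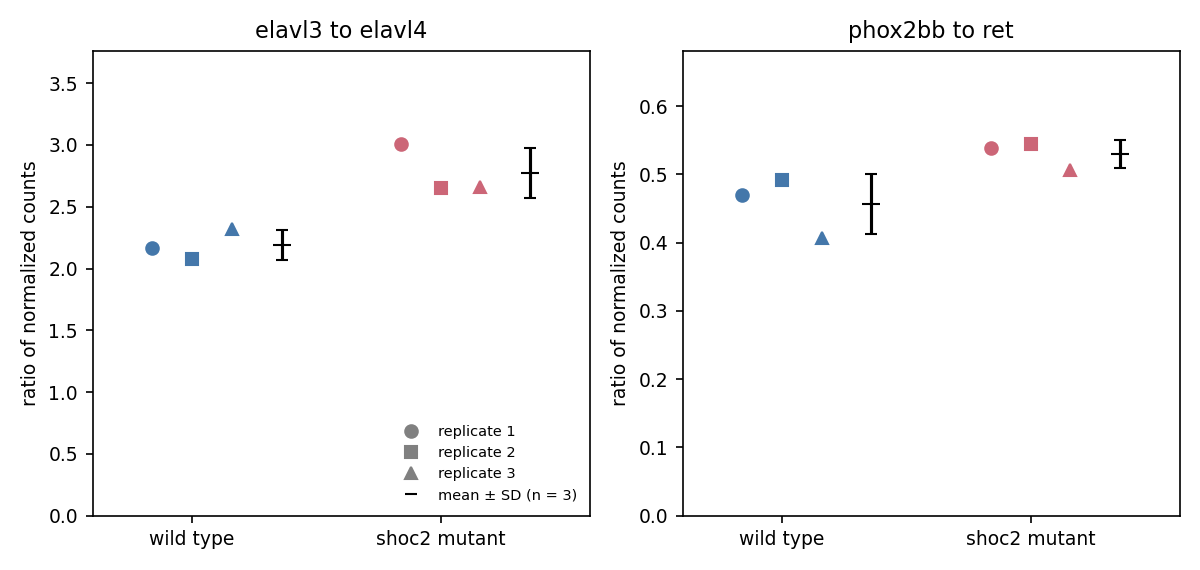
Ratio of normalized counts of elavl3 to elavl4 and of phox2bb to ret (y axes, starting at 0) in each library, with the mean ± SD of 3 libraries. The elavl3 to elavl4 ratio lies between 2.08 and 2.32 in wild type and between 2.65 and 3.01 in mutants. Of the 21 ratios between members, these 2 did not overlap and are shown for that reason. Of all single genes tested, 10.6% did not overlap. A background over all genes was computed for elavl3 and elavl4 only.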

How the data were processed

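The authors deposited 1 table of normalized counts, a signal in which a gene's read count is divided by 1 size factor per library. Its name says HTSeq; the submitters' processing notes name FastQC 0.11.7, STAR 2.6, Cuffnorm and the build GRCz11, with no role or order. Counting options, strand setting, annotation and normalization method are not given in the sources used here. In each column, 100% of values were whole multiples of 1 step to within 0.01 reads, so reads could be recovered. Columns were matched by title and groups taken from the source name.

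Symbols of the 7 members come from the choice of members. A name table paired 25324 of 27726 identifiers, often in capitals without a paralog letter, and listed symbols were matched exactly, then in capitals, then without that letter. Lists with under 80% of symbols matched (leukocytes, 77.8%; erythrocytes, 71.4%) are given only as sums of the matched genes. Glia, neural crest and pigment cell lists had 0 genes past the threshold in limma or DESeq2. The cartilage list had 0 of 12 in limma and 3 of 12 in DESeq2, where 0.757% of all genes passed in DESeq2.

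Genes with at least 10 normalized counts in at least 3 of 6 libraries were tested with limma 3.58.1 in R 4.3.3 (variance trend, pseudocount 1, no covariate); the log2(normalized count + 1) scale understates fold changes of low genes. edgeR 4.0.16 and DESeq2 1.42.0 were run on recovered reads. Tests were tried on simulated data. Single values had exact permutation tests (scipy 1.17.1). Genes named were the 7 members, the 5 most like them and list genes past the threshold (none); others were named after their values were seen. The members and lists were chosen with earlier results of these data known. Counting variation and floors cover counting error only. No 2 libraries were alike within sampling noise (chi-square per degree of freedom 27.2 or more).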

Additional observations from a re-analysis of the deposited data

How the results depend on the processing

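Under 17 alternatives, 0 of the 7 neuron genes and 0 genes of the 6 other neuron lists passed the threshold. Signs did not hold in all of them: without wild-type replicate 1, log2 fold changes were 0.025 for ret, 0.25 for th and -0.037 for elavl4. Without mutant replicate 1 they were 0.044 for th and -0.068 for elavl4, and without wild-type replicate 3 that of phox2bb was -0.11. With a library left out, log2 fold changes ran from -0.11 to 0.27 for phox2bb, -0.25 to 0.025 for ret, -0.23 to 0.25 for th and -0.068 to 0.23 for elavl4. The cause was not tested. phox2a, ascl1a and elavl3 were positive in 17 of 17, but phox2a was 0.0038 without wild-type replicate 3 (up to 0.37) and ascl1a 0.075 without mutant replicate 1 (up to 0.42); elavl3 ran from 0.21 to 0.60. The number of neuron genes without overlap ran from 0 to 2 with a library left out. These were phox2a and ascl1a without wild-type replicate 2, and elavl3 without mutant replicate 3. In each case the library left out held the only value of its genotype that made the groups overlap. Fewer libraries overlap less often. The share of all genes without overlap was not computed with a library left out, so these counts have no background.

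Of all genes, 1 passed in the main setting, 3 without the filter, 155 in DESeq2, and 0 without the variance trend (1227 at an unadjusted p under 0.05) or in edgeR (1232). With a library left out the number ran from 0 to 4. With the replicate number as a block it was 0 (906 unadjusted). Deviations of equally numbered libraries had a mean correlation of -0.108 across genes, and no source says that equal numbers share a clutch or sort. The spread between the 3 libraries of a group exceeded counting error for each neuron gene. Together with limma's variance trend over all genes tested, that spread sets the width of the intervals. For elavl3 the unadjusted limma p was 0.0724 in the main setting, 0.141 without the variance trend and 0.0925 with the replicate number as a block. Its unadjusted p was 0.0595 in edgeR and 0.051 in DESeq2.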

Other observations

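Genes were ranked by their likeness to the 7 neuron genes over the 6 libraries. Likeness was measured as the mean Pearson r of log2(normalized count + 1) with the 7 members, among genes that have a symbol and average 50 normalized counts or more. The highest mean r was 0.549, for gna11a, a G protein alpha subunit gene, whose r ran from 0.0445 with th to 0.922 with phox2a. RPL17 and RPSA2, both ribosomal protein genes, followed with a mean r of 0.548 and 0.547. Next came PLTP, a phospholipid transfer protein gene, with 0.547, and DLST, which encodes an enzyme component of the citric acid cycle, with 0.545. All 5 had their highest r with phox2a and their lowest with th. RPSA2 had 50255, 54907 and 44967 normalized counts in wild-type replicates 1, 2 and 3 and 53665, 53144 and 50775 in mutant replicates, so that wild-type replicate 3 was lowest, as for phox2a. The members themselves set a limit to the mean r: over the same 6 libraries, th had r = -0.551 with elavl3 and -0.616 with elavl4. A high r with all 7 members was thus excluded beforehand for any gene. The size of the mean r therefore does not show whether a gene resembles the set. These correlations are over 6 libraries and are given as a description.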
